A study of Mus musculus with 6 samples.

Results

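The genes described here are 47 interferon-stimulated genes of the mouse, among them the chemokine gene Cxcl10, measured by RNA-Seq in sorted thymocytes. They were chosen from a table of 22322 genes by a list of gene names, made with earlier results of these data known. All 47 were found in the table, and 45 of them had enough reads for a test across 11488 genes. Mx1 and Ifit3b had too few. The study asked what the loss of Paxbp1, a conserved nuclear protein, does to T cell development. Thymocytes carrying both CD4 and CD8 (double-positive, DP) were sorted by flow cytometry from the thymus of untreated mice, and RNA of the 6 samples was sequenced.

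The control group (3 libraries, labelled WT) came from Paxbp1 fl/fl mice without a Cre transgene. The Paxbp1 cKO group (3 libraries) came from Paxbp1 fl/fl mice that also carried Lck-cre. All mice thus had the floxed allele, in which loxP sites flank an exon. Control animals were littermates on a C57BL/6 background, and the mice were young and of mixed sexes. Lck-cre is driven by the proximal promoter of Lck and acts in the T lineage from an early thymic stage, before cells become DP, and cells outside that lineage keep Paxbp1. Nothing states that each library came from a separate mouse, so p-values measure the spread between these libraries, which may be technical.

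Interferons bind receptors at the cell surface, whose Janus kinases phosphorylate STAT proteins. Type I interferons act through a complex that holds STAT2 and IRF9 and binds the interferon-stimulated response element (ISRE), and interferon gamma acts through the gamma-activated site (GAS). The genes switched on encode sensors of foreign RNA and DNA, enzymes that degrade viral RNA, GTPases that attack vacuoles of microbes, and chemokines. In the thymus, maturing thymocytes are known to meet interferon in the medulla.

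The sequences just before the start sites show which of these genes carry the letters of such elements. RefSeq promoters (build GRCm38.p6, from 250 bases before to 50 bases after the start site) were found for 36 of the 47 members. Oas1b was not among them. The core of the ISRE was searched as GAAA and GAAA with 2 bases between them, the GAS as TTC and GAA with 3 bases between them, and the kB site of NF-kB as GGGA and TTCC with 2 bases between them. Both strands were searched and overlaps were allowed. The 250 bases before the start site are printed 5′ to 3′ for the 5 members past the threshold that were in the table. Oasl2 and Sp100 stand beside them as the members of largest fold change and highest level among the rest. Capitals mark the matched letters, and where a gene had 2 start sites the window with more matches, or else the first, is shown.
Cxcl10 (chr5:92348890-92349139, minus strand): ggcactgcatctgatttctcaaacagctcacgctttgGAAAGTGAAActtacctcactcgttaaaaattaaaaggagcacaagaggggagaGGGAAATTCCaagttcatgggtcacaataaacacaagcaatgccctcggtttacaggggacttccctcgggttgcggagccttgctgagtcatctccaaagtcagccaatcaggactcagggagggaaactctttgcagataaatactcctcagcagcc
Gbp3 (chr3:142559794-142560043, plus strand): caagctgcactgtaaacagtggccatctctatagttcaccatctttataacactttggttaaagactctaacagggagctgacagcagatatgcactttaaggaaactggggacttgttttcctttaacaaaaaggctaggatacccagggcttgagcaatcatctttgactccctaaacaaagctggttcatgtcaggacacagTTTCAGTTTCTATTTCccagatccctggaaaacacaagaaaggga
Irf1 (chr11:53769764-53770013, plus strand): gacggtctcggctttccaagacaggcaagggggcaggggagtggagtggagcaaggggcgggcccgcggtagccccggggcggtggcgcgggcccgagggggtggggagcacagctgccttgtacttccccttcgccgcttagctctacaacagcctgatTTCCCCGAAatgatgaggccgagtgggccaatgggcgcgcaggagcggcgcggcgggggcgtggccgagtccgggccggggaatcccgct
Bst2 (chr8:71537473-71537722, minus strand): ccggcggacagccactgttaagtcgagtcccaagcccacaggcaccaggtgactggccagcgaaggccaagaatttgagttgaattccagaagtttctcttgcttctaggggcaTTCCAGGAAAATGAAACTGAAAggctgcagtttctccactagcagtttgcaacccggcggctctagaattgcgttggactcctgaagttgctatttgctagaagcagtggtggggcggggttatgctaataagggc
Herc6 (chr6:57580742-57580991, plus strand): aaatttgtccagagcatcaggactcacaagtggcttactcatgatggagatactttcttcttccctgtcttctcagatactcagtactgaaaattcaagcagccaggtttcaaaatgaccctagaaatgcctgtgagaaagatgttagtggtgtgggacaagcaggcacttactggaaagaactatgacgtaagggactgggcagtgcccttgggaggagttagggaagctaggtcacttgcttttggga
Oasl2 (chr5:114896684-114896933, plus strand): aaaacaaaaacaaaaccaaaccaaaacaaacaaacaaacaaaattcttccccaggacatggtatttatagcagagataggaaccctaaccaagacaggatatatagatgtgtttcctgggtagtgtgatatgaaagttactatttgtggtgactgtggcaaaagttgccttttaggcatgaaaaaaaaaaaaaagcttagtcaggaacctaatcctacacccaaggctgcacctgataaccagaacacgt
Sp100 (chr1:85649738-85649987, plus strand): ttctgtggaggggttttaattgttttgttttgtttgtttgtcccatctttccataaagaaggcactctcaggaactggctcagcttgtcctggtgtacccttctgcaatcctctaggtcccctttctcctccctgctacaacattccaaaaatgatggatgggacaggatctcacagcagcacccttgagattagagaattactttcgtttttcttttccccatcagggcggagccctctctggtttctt

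Counting the start site as 0, the Cxcl10 promoter held an ISRE core from -213 to -204 and a kB site from -159 to -150. Gbp3 had 2 overlapping ISRE cores, starting at -45 and -39 and read from the opposite strand. Irf1 had a GAS starting at -90 and no ISRE core. In Bst2, a GAS at -136 ran into 2 overlapping ISRE cores at -130 and -124. Herc6, Oasl2 and Sp100 had no match, which says only that these letters were not in the window searched.

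Over all members, 20 of 36 genes (55.6%) had an ISRE core, against 3.99% of the 27025 genes of the promoter table. The GAS was found in 10 members (27.8%, against 9.55%) and the kB site in 3 (8.33%, against 1.63%). The ISRE core was present in 3 of the 5 members past the threshold (60%) and in 16 of the 30 tested members that were not (53.3%). The first of these shares rests on 5 genes.

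The libraries held 18963775 to 26252248 counted reads. Levels are given as normalised read counts, that is counts scaled to a common library size by TMM (CPM), and compared between genes only as the authors' FPKM. At a Benjamini-Hochberg adjusted p below 0.05, the quasi-likelihood test of edgeR found 1191 of all tested genes (10.4%). Counts of Paxbp1 itself were 774, 318 and 400 in control libraries 1, 2 and 3 and 851, 905 and 1075 in the libraries labelled cKO, a log2 fold change of 0.92 (SE 0.33, adjusted p = 0.0977). Counts over a whole gene do not measure the deleted exon, so they do not check the labels. The summed level of 12 DP markers was 14066 to 15796 CPM in control and 10459 to 11987 CPM in cKO libraries, and none of the 12 was at 0. Of the 12, 11 were fitted lower and 4 were called lower, where 5.89% of all tested genes were.

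Of the 45 tested interferon-stimulated genes, 6 were higher in the libraries labelled cKO, namely Cxcl10, Gbp3, Oas1b, Irf1, Bst2 and Herc6. That is 13.3% of the members, where 4.47% of all tested genes were called higher. None was lower, where 5.89% of all tested genes were: edgeR, DESeq2 (8.59% of all tested genes lower) and limma-voom each gave 0. At an unadjusted p below 0.05, 0 members were lower, against 14.6% of all tested genes. Cxcl10, Gbp3, Oas1b and Irf1 also had a log2 fold change above 1, the threshold of the study's methods, which 1.53% of all tested genes passed upward and 1.23% downward. The fitted fold change was above 0 for 42 of the 45, against 49.8% of all tested genes. Its median was 0.74 on the log2 scale over the members and -0.0017 over all tested genes. At an unadjusted p below 0.05, 23 members were higher, against 13.3% of all tested genes. In 16 members the 3 cKO libraries all lay above the 3 control libraries, a separation seen in this direction in 15.7% of all tested genes. The reverse held for 0 members and 17.3% of all tested genes. Since the members were listed with earlier results of these data known, these shares describe them and are no independent test.

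**Figure D1:**
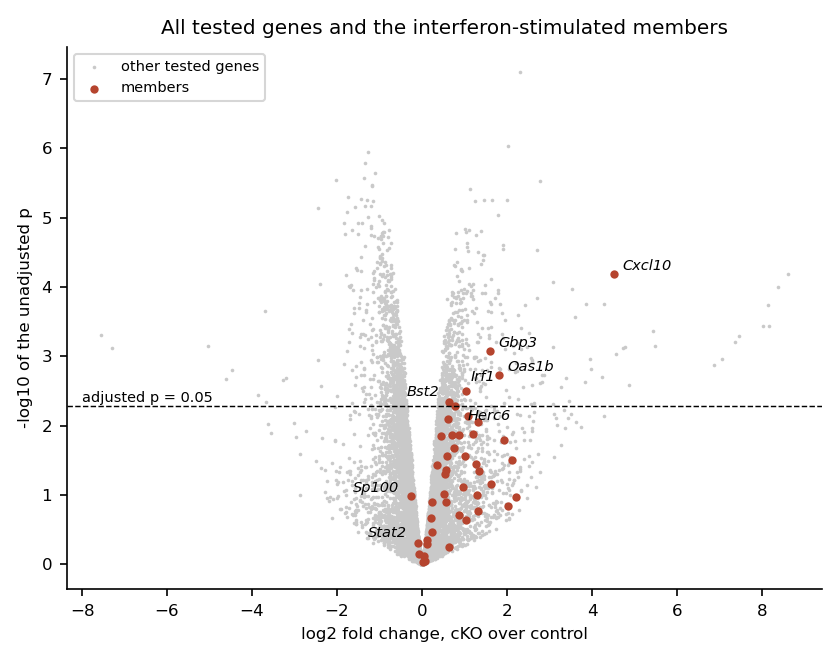
Log2 fold change (horizontal axis, cKO over control) against -log10 of the unadjusted p (vertical axis) for 11488 tested genes, with the 45 tested interferon-stimulated members in red. The members lie mostly to the right of 0, and 6 of them are above the dashed line that marks an adjusted p of 0.05.

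Cxcl10 encodes a chemokine that attracts T cells and natural killer cells through the receptor CXCR3. Its counts were 17, 6 and 36 in control libraries 1, 2 and 3 and 745, 95 and 490 in cKO libraries 1, 2 and 3. As normalised counts these were 0.88, 0.31 and 1.40 CPM against 34.0, 4.95 and 22.6 CPM. All cKO libraries lay above all controls, but they spread widely: cKO 1 was 6.88 times and cKO 3 4.57 times cKO 2, which in turn was 3.54 times the highest control. Cxcl10 rose by 4.53 on the log2 scale (SE 0.70, adjusted p = 0.00669), the largest fitted fold change among the members. The call was kept with each library left out in turn (log2 fold change 3.96 to 5.09, adjusted p 0.00466 to 0.0425). It was lost with limma-voom, where the log2 fold change was 4.36 and the adjusted p was 0.0723. In the GENCODE M21 annotation of GRCm38, Cxcl10 lies on the minus strand at chr5:92346638-92348889, and 133 of its 2252 exonic bases (5.91%) overlap exons of Art3 on the other strand. Nothing in the sources says whether strand was used in counting, so reads in those bases cannot be assigned with certainty.

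The other ligands of CXCR3 were near the limit of detection. Cxcl9 had 4, 0 and 0 counts in control and 13, 0 and 0 in cKO libraries. Cxcl11 was counted only in cKO 2, with 5 reads. Cxcr3 itself had 16, 5 and 8 counts against 0, 7 and 17. None of the 3 had enough reads for a test.

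Of the 5 interferon regulators among the members, 1 passed the threshold upward, against 4.47% of all tested genes. Irf1 encodes a transcription factor that is induced by interferons and activates many interferon-stimulated genes. It was at 254, 124 and 147 CPM in control and 410, 246 and 420 CPM in cKO libraries, so that control 1 lay above cKO 2 and the groups overlapped. Irf1 rose by 1.04 on the log2 scale (SE 0.27, adjusted p = 0.0389). Like Cxcl10, it was highest in cKO 1 and cKO 3, and the lowest library within each group was control 2 or cKO 2.

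Irf7, the factor that amplifies type I interferon production, was at 13.4, 19.5 and 6.72 CPM in control and 29.0, 30.9 and 23.5 CPM in cKO libraries. The groups did not overlap, and the log2 fold change of 1.08 (SE 0.32) missed the threshold (adjusted p = 0.0595). Irf9, the DNA-binding part of the type I complex, was at 36.7, 44.5 and 20.3 against 44.2, 51.4 and 55.1 CPM (log2 fold change 0.57, adjusted p = 0.167). Control 2 and cKO 1 held nearly the same level of Irf9. Stat2, its partner in that complex, was at 53.1, 53.7 and 48.7 against 49.7, 46.0 and 50.1 CPM (log2 fold change -0.09, SE 0.13, adjusted p = 0.7).

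Usp18 removes ISG15 from proteins and blocks signalling at the type I receptor, which makes it the brake of the group. It was at 9.23, 48.9 and 11.3 CPM in control and 39.3, 63.9 and 64.3 CPM in cKO libraries. Control 1 and control 3 lay far below every other library, whereas control 2 exceeded cKO 1. With all 6 libraries the log2 fold change was 1.28 (SE 0.53, adjusted p = 0.147).

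Among the sensors of RNA and DNA, none of the 6 members passed edgeR's threshold. At an unadjusted p below 0.05, 2 were higher, against 13.3% of all tested genes. Log2 fold changes of the 6 ranged from 0.07 for Dhx58, which encodes LGP2, to 1.63 for Ifi213, of the DNA-binding PYHIN proteins. Ifih1, which encodes the RNA sensor MDA5, was at 4.15, 13.5 and 8.0 CPM against 12.1, 22.7 and 23.8 CPM (log2 fold change 1.19, adjusted p = 0.083). Here control 2 lay above cKO 1. Eif2ak2, the kinase PKR that halts translation, and Ifi203 separated without overlap but had adjusted p-values of 0.107 and 0.313.

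The oligoadenylate synthetases make the messenger that activates RNase L, and the OAS-like proteins are their relatives. All 6 had fitted fold changes above 0 (0.64 to 2.21 on the log2 scale), as did 49.8% of all tested genes. Of the 6, 1 was called higher, where 4.47% of all tested genes were. Oas1b was at 2.23, 1.95 and 1.63 CPM in control and 3.38, 8.38 and 8.63 CPM in cKO libraries, with cKO 1 close to the controls. It rose by 1.81 on the log2 scale (SE 0.44, adjusted p = 0.0294). The annotation lists Oas1b (chr5:120812635-120824163) as a polymorphic pseudogene, since the C57BL/6 allele is known to carry a premature stop codon, so the value is that of its transcript.

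Oasl2 had 1, 37 and 0 counts in control and 42, 111 and 28 in cKO libraries. Its log2 fold change of 2.21 was the largest among members that were not called, with an SE of 1.26 and an adjusted p of 0.283. Control 2 had more reads than cKO 3, and the other control libraries had next to none. Oas1a shared 57.6% of its 50-base words with Oas1g, so reads of that pair may have been divided between them.

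The IFIT proteins bind viral RNA and block its translation. None of the 3 tested members passed edgeR's threshold. At an unadjusted p below 0.05, 1 was higher, against 13.3% of all tested genes. The fold changes of the 3 ranged from 0.22 for Ifit2 to 1.34 for Ifit3 on the log2 scale. Ifit1 was at 0.52, 16.1 and 4.23 CPM in control and 6.35, 19.8 and 16.8 CPM in cKO libraries (log2 fold change 1.05, SE 0.81, adjusted p = 0.441), and the level in control 2 was close to that in cKO 3. Ifit3b had 0, 9 and 0 against 0, 10 and 11 counts. Ifit3 shared 51.2% of its 50-base words with Ifit3b, which makes the division of reads between them uncertain.

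Of 13 other antiviral effectors, 12 were tested and 1 was called higher, where 4.47% of all tested genes were. Bst2, also called tetherin, holds budding virus at the cell surface, and it marks plasmacytoid dendritic cells too. It was at 29.3, 40.5 and 40.0 CPM in control and 47.8, 61.5 and 60.4 CPM in cKO libraries. The groups did not overlap, and Bst2 rose by 0.63 on the log2 scale (SE 0.17, adjusted p = 0.0469). The 8 listed markers of those cells, Bst2 included, summed to 2607, 2926 and 2648 CPM in control and 1750, 2069 and 1997 CPM in cKO libraries, without overlap and highest of the controls in control 2. Of the 6 tested, Bst2 was called higher and Ly6d lower, where 4.47% and 5.89% of all tested genes were. Of the 6, 4 were fitted lower, and the median log2 fold change was -0.25. Siglech, a defining marker, had 10, 0 and 0 counts in control and 10, 2 and 23 in cKO libraries. Most of the sum thus came from listed genes other than Siglech and Bst2, and it cannot be read as the level of these cells. The part of these cells in the level of Bst2 was not tested.

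Mx2, of the family of dynamin-like GTPases, is listed in the annotation as a polymorphic pseudogene, as Oas1b is, so its value is that of its transcript. It was at 0.93, 3.39 and 0.39 CPM in control and 4.06, 7.76 and 6.14 CPM in cKO libraries, without overlap (log2 fold change 1.94, SE 0.68, adjusted p = 0.0933). Its neighbour Mx1, whose protein blocks influenza virus in mice that have an intact copy, had 5, 11 and 0 counts against 1, 5 and 45 and was not tested. Isg15, the ubiquitin-like modifier, was at 3.58, 6.43 and 1.44 CPM against 5.62, 9.27 and 7.25 CPM (log2 fold change 0.96, adjusted p = 0.231). Control 2 again lay above cKO 1.

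Lgals3bp, a secreted glycoprotein that binds galectins, was at 54.2, 98.1 and 54.4 CPM in control and 93.3, 142 and 105 CPM in cKO libraries (log2 fold change 0.72, SE 0.24, adjusted p = 0.0838). Its mean level was 41.1 FPKM. Control 2 was above cKO 1, while the other controls were nearly equal to each other. Sp100, a protein of nuclear bodies, was at 309, 366 and 309 against 246, 333 and 243 CPM. It had the lowest fitted value of all members, -0.26 on the log2 scale (SE 0.15, adjusted p = 0.276).

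The interferon-induced GTPases, guanylate-binding proteins and immunity-related GTPases, gave 6 members and 1 call upward, where 4.47% of all tested genes were called higher. Gbp3 was at 2.39, 5.81 and 3.57 CPM in control and 10.7, 10.7 and 14.4 CPM in cKO libraries. The lowest cKO library was above the highest control, and Gbp3 rose by 1.61 on the log2 scale (SE 0.35, adjusted p = 0.0193). Iigp1, which acts on vacuoles of parasites, had 12, 153 and 10 counts against 200, 263 and 329. Its log2 fold change was 2.11 (SE 0.85, adjusted p = 0.137), with control 2 near the cKO libraries and the other controls far below. Igtp, also called Irgm3, was at 207, 194 and 134 CPM against 171, 177 and 163 CPM (log2 fold change -0.06, SE 0.16, adjusted p = 0.84).

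The last 6 members join ubiquitin, ISG15 or ADP-ribose to other proteins. Herc6, the main ligase for ISG15 in mice, was at 24.2, 37.7 and 26.7 CPM in control and 37.8, 62.1 and 53.0 CPM in cKO libraries. The groups came close, with control 2 just below cKO 1, and Herc6 rose by 0.79 on the log2 scale (SE 0.22, adjusted p = 0.0497). Fold changes of all 6 lay in a narrow range, from 0.35 for Dtx3l to 0.79 for Herc6. In 5 of the 6, all but Trim30a, the cKO libraries all lay above the controls, as in 15.7% of all tested genes. At an unadjusted p below 0.05, 5 were higher, against 13.3% of all tested genes. Dtx3l and Parp9, whose products form a complex, share 458 exonic bases on opposite strands, which is 8.0% of those of Dtx3l and 9.4% of those of Parp9.

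**Figure D2:**
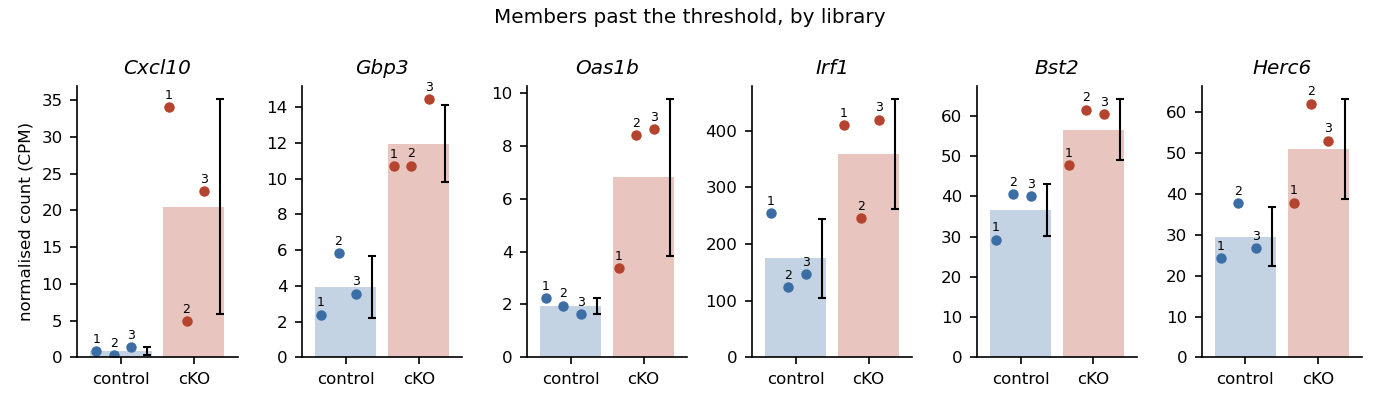
Normalised counts (CPM, vertical axis, each panel with its own scale) of the 6 members past the threshold. Points are libraries with their numbers, and bars and whiskers are the mean and SD of the 3 libraries of a group. Irf1 is the one gene of the 6 whose groups overlap.

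The 5 calls other than Cxcl10 were each lost when some single library was left out. Bst2 was lost with any of the 6 left out (adjusted p 0.0547 to 0.171). Irf1 was lost without control 2, control 3, cKO 1 or cKO 3 (0.104 to 0.155), and Oas1b without control 2, control 3, cKO 2 or cKO 3 (0.0813 to 0.139). Herc6 was lost without control 1, control 3, cKO 2 or cKO 3 (0.0759 to 0.163). Gbp3 was lost without control 3, cKO 1 or cKO 3 (0.0529 to 0.102). The fold changes stayed above 0 throughout. Herc6 also shared 12.5% of its 50-base words with other genes, mostly with Gm45193, and Irf1 overlaps Gm17334 on the opposite strand over 3.4% of its exonic bases.

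Per length, the members spanned a wide range of levels. Sp100 was highest with a mean of 163 FPKM over the 6 libraries, followed by Irf1 with 138, Igtp with 88.8 and Bst2 with 58.8 FPKM. Cxcl10 had a mean of 9.77 FPKM, Herc6 8.48, Gbp3 3.36 and Oas1b 2.39 FPKM. Mx1 and Ifit3b were the lowest, with 0.20 and 0.13 FPKM. Sp100 was both the most abundant member and the one of lowest fitted fold change. The mean of Cxcl10, with the largest fold change, joins unlike groups, 0.78 FPKM in control and 18.8 FPKM in cKO libraries.

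The 3 control libraries did not share one level of these genes. Control 2 was the highest control for 35 of the 45 tested members (77.8%), where it was the highest control for 29.4% of all tested genes. It exceeded the mean of controls 1 and 3 by more than 2 times for 16 members (35.6%), against 2.71% of all tested genes. Control 2 was 15.6 times the mean of the other controls for Iigp1, 7.40 times for Ifi213, 6.91 times for Oas1a, 6.77 times for Ifit1 and 4.77 times for Usp18. For Irf1, Cxcl10, Ifit3 and Ifi203 it was the lowest control.

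Within the cKO group, cKO 2 was highest for 29 of the 45 tested members (64.4%, against 33.1% of all tested genes) and cKO 1 was lowest for 34 (34.3% of all tested genes). Cxcl10 went the other way, with cKO 1 highest and cKO 2 lowest. In Cxcl10, Irf1 and Ifit3 the lowest library of either group was its library 2. These 3 were singled out after their values were seen. Taking each gene's log2 CPM relative to its mean over the 6 libraries, the median over members was -0.60, 0.17 and -0.64 in control libraries 1, 2 and 3 and 0.07, 0.63 and 0.48 in cKO libraries 1, 2 and 3. The median for control 2 was thus above that for cKO 1.

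**Figure D3:**
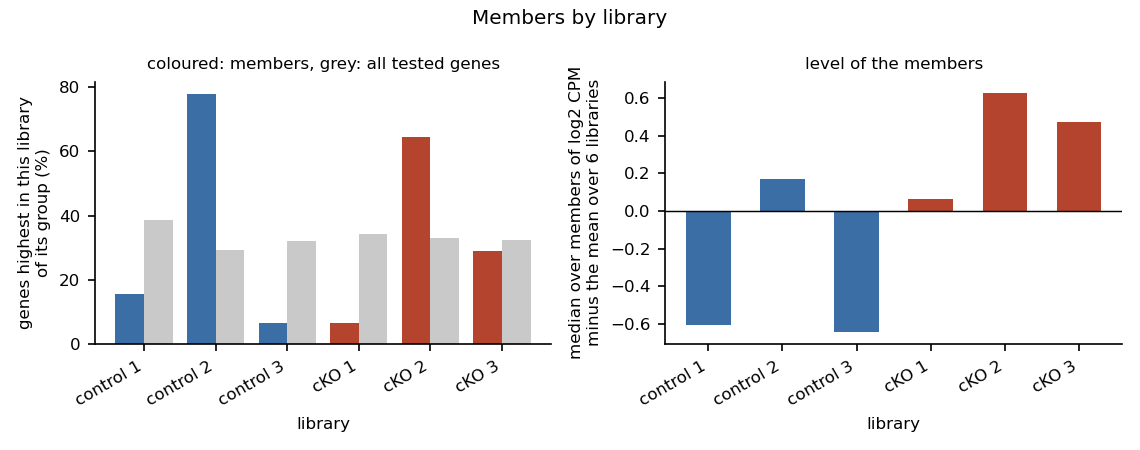
Left, the share (%) of tested members (coloured) and of all tested genes (grey) for which a library is the highest of the 3 of its group. Right, the median over members of log2 CPM minus the gene's mean over 6 libraries, where control 2 stands at 0.17 and the other controls at -0.60 and -0.64.

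**Figure D4:**
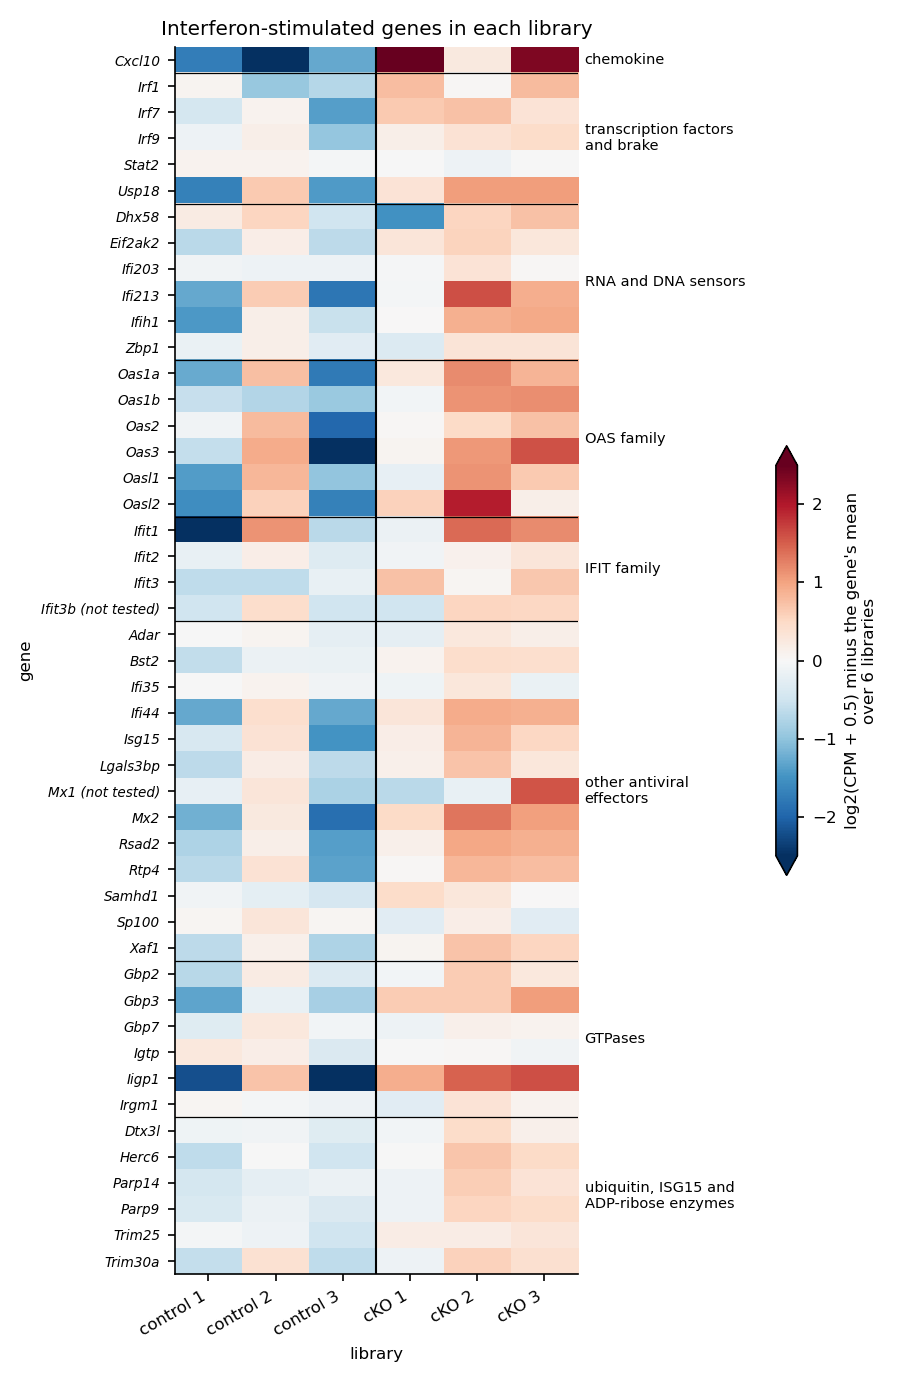
Level of each of the 47 members (rows, grouped by role) in each library (columns), as log2(CPM + 0.5) minus the gene's mean over 6 libraries, with colours limited at -2.5 and 2.5. Many antiviral genes are blue in control 1 and control 3 and not in control 2, whereas Cxcl10 is darkest blue in control 2.

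The controls differed more among themselves for these genes than for genes at large. The median SD of log2 CPM among the 3 controls was 0.51 over the members and 0.23 over all tested genes. Among the 3 cKO libraries it was 0.36 and 0.19, so the spread was wider for the members in both groups. The genes were not matched by level, and the part of low counts in this spread was not tested. With control 2 left out, 17 of 46 tested members (37%) were higher at an adjusted p below 0.05, although the share over all tested genes was then 1.5%. They were Cxcl10, Eif2ak2, Gbp3, Herc6, Ifi213, Ifi44, Ifih1, Iigp1, Irf7, Lgals3bp, Mx2, Oas1a, Oasl2, Rsad2, Rtp4, Usp18 and Xaf1. Bst2, Irf1 and Oas1b were no longer called. None was lower, where 1.98% of all tested genes were. Leaving out control 2 was among the alternatives planned for every library, and the weight given to it here followed from the levels seen. Control 2 was the highest control for 77.8% of the tested members. The added calls without it thus restate those levels in part and are no separate test.

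Without control 2 the log2 fold change of Iigp1 was 4.65 (SE 0.46, adjusted p = 0.00905), that of Usp18 2.44 (SE 0.27, adjusted p = 0.0147) and that of Irf7 1.47 (SE 0.31, adjusted p = 0.0369). Mx2 stood at 3.19 (SE 0.61, adjusted p = 0.0292) and Oas1a at 2.85 (SE 0.56, adjusted p = 0.0311). These values rest on 2 control libraries. Ifi44 had no reads in controls 1 and 3 and 22, 35 and 38 in the cKO libraries, so it was at least 11.5-fold higher on a floor of 3 counts per library, but control 2 alone had 22 reads. The median over the members rose from 0.74 to 1.08 on the log2 scale. Ifi44 and Ifit3b were at 0 in both remaining controls. Setting them to their bound kept both above that median, so it could not change.

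In 35 of the 45 members tested with all libraries, the cKO libraries all lay above controls 1 and 3, against 18.8% of all tested genes. The same count was 17 without control 1 (24.5%) and 16 without control 3 (20%). Leaving out a control can raise it only through genes where that control was highest. Control 2 was highest for 77.8% of the tested members, against 29.4% of all tested genes. The rise without control 2 thus restates those levels and is no separate test. Leaving out control 3 left Cxcl10 as the 1 call among the members, as did leaving out cKO 3. Of all tested genes, 2.42% and 0.359% were then higher. Leaving out control 2 together with cKO 1, chosen after the levels were seen, left Iigp1, Rtp4 and Usp18. In that fit 27 genes of the whole table were higher. With all libraries, DESeq2 called 14 members higher (8.3% of all tested genes) and limma-voom 9 (5.22%).

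**Figure D5:**
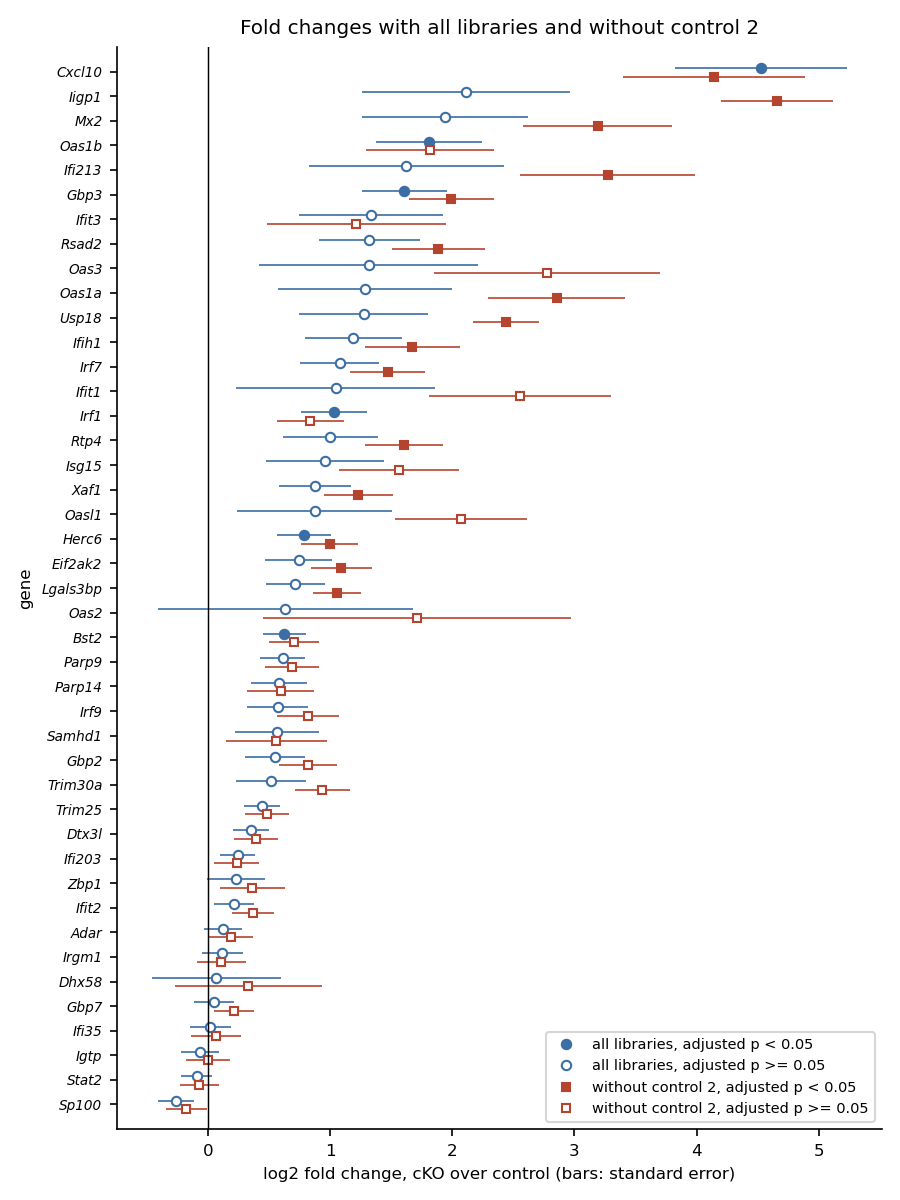
Log2 fold change (horizontal axis, cKO over control) with its standard error for 43 tested members, with all 6 libraries (blue circles) and without control 2 (red squares); filled symbols have an adjusted p below 0.05. Ifi44 and Oasl2 are left out, since controls 1 and 3 held 0 or 1 read of them, and Cxcl10 changes little between the fits, from 4.53 to 4.14.

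The interferons themselves were hardly present in the counts. Of 21 interferon genes, 17 had no read in any library and none could be tested. Ifnb1 had 0 reads in all 6 libraries. Ifng had 2, 7 and 5 counts in control and 29, 17 and 9 in cKO libraries, which is too few for a test although the groups did not overlap.

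Of 96 other genes of the pathway that were tested, 5 were higher (5.21%, against 4.47% of all tested genes). Another 4 were lower, where 5.89% of all tested genes were. Both counts lay near the shares over all tested genes, so the genes named next are examples. Higher were Ddx60 (log2 fold change 1.89), an RNA helicase of antiviral defence, and Trim30d (2.06), a TRIM protein. The cytosolic DNA sensor Cgas (1.0), the interferon gamma receptor chain Ifngr2 (0.74) and the JAK-STAT phosphatase Ptpn2 (0.69) rose too. Lower were Ikbke (-0.91), a kinase that acts on IRF proteins, Gbp8 (-0.68), Epsti1 (-0.63) and Sp110 (-0.42). The median over the 96 genes was 0.19 on the log2 scale.

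Because the cells were a sorted bulk population, fewer cells of a type and less RNA per cell cannot be told apart, and markers of other cells were read beside the members. Of 12 tested macrophage markers, 6 were higher in the libraries labelled cKO, where 4.47% of all tested genes were. In all, 10 were fitted higher and 2 lower, 1 of the latter at an unadjusted p below 0.05 in edgeR. The lowest log2 fold change was -0.75. The summed level of the 16 listed genes was 29.2 to 52.9 CPM in control and 72.9 to 96.6 CPM in cKO libraries. Adgre1 had no reads in any control and 50, 42 and 52 in cKO libraries, while Mertk was at 0 throughout. C1qb had 44, 21 and 18 counts in control and 154, 162 and 237 in cKO libraries. By library the sum was 52.9, 35.6 and 29.2 CPM in controls 1, 2 and 3. Cxcl10 is a gene that macrophages can express, and the part of these cells in its difference was not tested.

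Markers of natural killer and innate T cells, a source of interferon gamma, summed to 38.7, 88.8 and 76.1 CPM in controls 1, 2 and 3 and to 143 to 168 CPM in cKO libraries. Of the 4 tested, 1 was higher, where 4.47% of all tested genes were. Gzma, with 636, 1341 and 1672 counts in control and 3220, 2586 and 3494 in cKO libraries, made up most of the sum. Klrb1c was at 0 throughout. Markers of dendritic cells summed to 19.5, 31.6 and 19.9 CPM in controls 1, 2 and 3 and to 9.56 to 33.6 CPM in cKO libraries, with none of 4 tested genes past edgeR's threshold and 0 at an unadjusted p below 0.05. Erythroid markers summed to 27.5, 141 and 58.8 CPM in controls and to 1.92 to 48.8 CPM in cKO libraries. For the summed markers of natural killer and innate T cells, dendritic cells and erythroid cells, control 2 was the highest control, as for most members. It was also the highest for markers of DP thymocytes, plasmacytoid dendritic cells, B cells and mature single-positive (CD4 or CD8 alone) thymocytes. For those of macrophages, thymic epithelial cells and neutrophils it was not. In control 2, Ccr7 at 28.3 CPM made up most of the dendritic cell sum, and it is also listed for mature single-positive thymocytes. The part of these cells in the members' levels was not tested.

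By position, 20 of the 47 members lay in 7 clusters of neighbours no more than 500 kb apart. The largest were the IFIT cluster on chromosome 19 and the OAS cluster on chromosome 5, with 4 members each. Of the 7 clusters, 2 held a call: Oas1b was the only one of the 4 OAS neighbours past the threshold and Gbp3 the only one of the 3 GBP neighbours on chromosome 3. The other 4 calls, Cxcl10, Irf1, Bst2 and Herc6, were genes without another member nearby. The difference between neighbours was not tested.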

How the data were processed

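Total RNA of DP thymocytes was extracted and sequenced by the authors. For cDNA amplification a Discover-sc WTA Kit is named in the study's methods and a SMARTER kit in the sample labels, and which was used was not settled here. The submitters' processing notes name fastp 0.18.0, Bowtie2 2.2.8, HISAT2, StringTie and RSEM, without a role or order. Neither the genome build nor the use of strand is stated by the labels, headers or methods read here. The authors deposited 1 table of 22322 genes with the count of reads and the FPKM of each gene in each library, 3 control and 3 cKO. The deposited table also holds mean FPKM and the authors' own comparison, a log2 ratio with its p-value and FDR, made by the authors and not used here.

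Counts were used as deposited by the authors. The FPKM values deposited by the authors served only to compare levels between genes. Genes with no reads, or too few by filterByExpr (minimum count 10, minimum total 15), were left out, and the quasi-likelihood test of edgeR 4.0.16 (R 4.3.3) was fitted with TMM scaling to 11488 genes in the 6 libraries. P-values were adjusted over all of them by Benjamini-Hochberg. Genes were called at an adjusted p below 0.05, and a second rule also asked for an absolute log2 fold change above 1. For log2 CPM a prior count of 2 was used. Replicate libraries differed by more than counting noise (chi-square per degree of freedom 19.8 to 68.3), so none was treated as a repeat of another. The script was tested on simulated data. Alternatives were RLE scaling or total counts alone, no filter or a filter at a mean of 5 CPM, DESeq2 1.42.0, limma-voom (limma 3.58.1), a replicate block, each library left out, and Ifit3 and Ifit3b summed.

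Called members were given with the value in every library. Of the others, the 2 highest and 2 lowest by log2 fold change, the 3 of highest mean FPKM and the regulators Irf7, Irf9, Stat2 and Usp18 were named by rule. Ifih1, Eif2ak2, Ifit1, Mx2, Isg15 and the rest were named as examples after their values were seen. The members and lists were chosen with earlier results of these data known. Positions, overlaps and words of 50 bases shared between transcripts come from GENCODE M21 (GRCm38), and promoters from RefSeq (GRCm38.p6). Among the markers listed, Bst2 is also a member. The values of 1 other pathway gene are not reported here.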

Additional observations from a re-analysis of the deposited data

How the results depend on the processing

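RLE scaling, total counts alone, genes of at least 5 CPM on average, and summing Ifit3 with Ifit3b kept the counts of called members within 1.5 times of 6. Without a filter, 10 members were called higher, where 3.94% of all genes tested in that fit were, and 7 also passed the fold threshold. DESeq2 called 953 genes of the table higher (8.3% of those tested), 14 members (8 past the fold threshold, without Irf1) and 9 other pathway genes. With limma-voom, where 5.22% of all tested genes were higher, 7 members passed the fold threshold and 9 other pathway genes were higher. Limma-voom did not call Cxcl10 (log2 fold change 4.36, adjusted p = 0.0723) or Oas1b. The causes were not tested. With 1 library left out, 42 to 1000 genes of the table (0.359% to 8.42% of those tested) were higher and 78 to 1030 lower. Of the members, 1 to 17 were called and 1 to 16 passed the fold threshold. Of the other pathway genes, 0 to 8 were higher and 0 to 8 lower. These fits have fewer libraries. Without control 2 and cKO 1 together, 27 genes were higher and 24 lower, with 3 members among them. The median over the members stayed between 0.61 and 1.16 in all fits.

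Library numbers are shared by the groups, but nothing in the sources says whether they pair the libraries. Deviations from the group means correlated by 0.05, 0.04 and -0.03 for numbers 1, 2 and 3 across genes. With so few libraries in a group, these correlations cannot settle whether the libraries were paired. A replicate block called 14 members higher, 9 of them past the fold threshold, where 4.96% of all tested genes were higher. It put Oas1b at an adjusted p of 0.0538.

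The direction turned only for members near 0: Dhx58 was at -0.18 with limma-voom and -0.15 with the replicate block. With 1 library left out, Dhx58 ranged from -0.32 to 0.52, Gbp7 from -0.076 to 0.21, Igtp from -0.24 to 0.055, Ifi35 from -0.14 to 0.10 and Irgm1 from -0.039 to 0.27. Low counts limit Mx1, Ifit3b, Ifi44, Oasl2, Oas2 and the interferon genes themselves.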
